A study of Mus musculus with 15 samples.

Results

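The comparison described here set hearts of mice given isoproterenol for 4 days against hearts of mice given saline, and it used 8 of the 15 libraries of the series (4 per group). Members were taken by the treatment named in the sample labels, and each library is named by its group and its replicate letter, A to D. The 4-day group was male C57BL6 mice of 12 weeks that received isoproterenol under the skin at 50 mg/kg/day for 4 days. The saline group was male C57BL6 mice of the same age and strain that received saline. According to the paper saline was given over a similar period, and the labels name no number of days for it. The other 7 libraries, 3 after 8 days and 4 after 11 days of the same dose, entered only the direct comparisons between times at the end. The hearts were perfused with potassium chloride and buffer, and a small piece of each was frozen for total RNA sequencing. The paper describes the RNA as ventricular. Every value is thus a level in a mixture of cell types. In such bulk tissue, fewer cells of a type and less RNA per cell cannot be told apart. The labels do not say that a replicate letter ties a 4-day heart to a saline heart.

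Isoproterenol is a synthetic catecholamine that activates β-adrenergic receptors, which act through the stimulatory G protein, cyclic AMP and protein kinase A so that the heart beats faster and harder. Given for days, it is widely used in mice to bring about enlargement of the heart and fibrosis. The adult heart draws most of its energy from the oxidation of fatty acids in mitochondria. Fibroblasts build the extracellular matrix (ECM) between the muscle cells, macrophages are its main resident immune cells, and adult muscle cells rarely divide.

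Total expected counts were 99301092, 38083703, 90773004 and 27867193 in 4-day hearts A, B, C and D, against 55565382, 32760375, 117777005 and 28889500 in saline hearts A, B, C and D, so each group held deep and shallow libraries. Mitochondrially encoded transcripts held 47.5 to 52.1% of the counts in 4-day libraries and 51.2 to 58.4% in saline libraries. Levels are given as counts per 1000000 counts of a library (CPM), scaled with the trimmed mean of M values (TMM) over the 8 libraries, and listed in the order of hearts A, B, C and D. Fold changes are log2 of 4-day over saline, with a standard error (SE), and adjusted p-values come from the quasi-likelihood test of edgeR over all genes tested. A gene is said to have risen or fallen where its adjusted p was under 0.05. On the first principal component, which held 54.4% of the variance, 4-day B (4.0) and saline B (-8.5) lay nearest to the other group, where the other 4-day hearts stood at 20.5 to 29.8 and the other saline hearts at -25.6 to -21.9.

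Of 26862 genes tested, 1626 (6.05%) were higher in 4-day hearts than in saline hearts and 914 (3.4%) were lower, 2540 (9.46%) in all. The median log2 fold change over all genes was 0.0061. Every 4-day heart lay above every saline heart in 8.12% of genes and below in 5.52%, and 82.7% of the called genes were separated in this way. The rise took in 1522 of 16797 protein-coding genes and 74 of 6794 lncRNAs, while 753 protein-coding genes and 124 lncRNAs fell. The number of calls depended on single hearts, with 2540 becoming 1387 when 4-day A was left out, 1640 when 4-day C was and 1685 when saline A was. In each of the 8 fits with a heart left out 1262 genes passed (4.7%), and each gene named below as risen or fallen is among them unless stated. Scaled by library size alone, which includes the mitochondrial transcripts, 9.43% of genes were higher and 1.09% lower, and the median moved to 0.21, so the changes here are relative to the TMM scale.

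The genes with the largest called rises, among those without overlap that averaged at least 5 CPM in either group, were led by proteins secreted into the ECM. Spp1 (chr5:104435118-104441050 of GRCm38), the gene of osteopontin, stood at 9.99, 1.3, 8.16 and 4.92 CPM in 4-day hearts, against 0.0186, 0.0304, 0.106 and 0.0867 CPM in saline hearts. Thbs4, the gene of thrombospondin 4, a matricellular glycoprotein, stood at 43, 10, 26.1 and 26.8 CPM in 4-day hearts, against 0.91, 1.06, 0.959 and 1.13 CPM in saline hearts. Its rise was 4.74 on a log2 scale (SE 0.37, adjusted p = 2.75e-05). Postn, the gene of periostin, which activated fibroblasts secrete, stood at 657, 134, 435 and 497 CPM in 4-day hearts, against 15.6, 27.3, 14.4 and 14.5 CPM in saline hearts, a rise of 4.59 (SE 0.41, adjusted p = 9.63e-05). In these genes 4-day B was the lowest of the 4-day hearts, yet above every saline heart. Cilp, a cartilage intermediate layer protein made by cardiac fibroblasts, rose by 3.97 and Ltbp2, a microfibril-associated latent TGF-β binding protein, by 4.01. Gpnmb, a glycoprotein of scavenging macrophages, rose by 3.69, Sfrp2, a secreted Wnt modulator, by 3.59 and Lgals3, the gene of galectin-3, by 3.36.

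**Figure D1:**
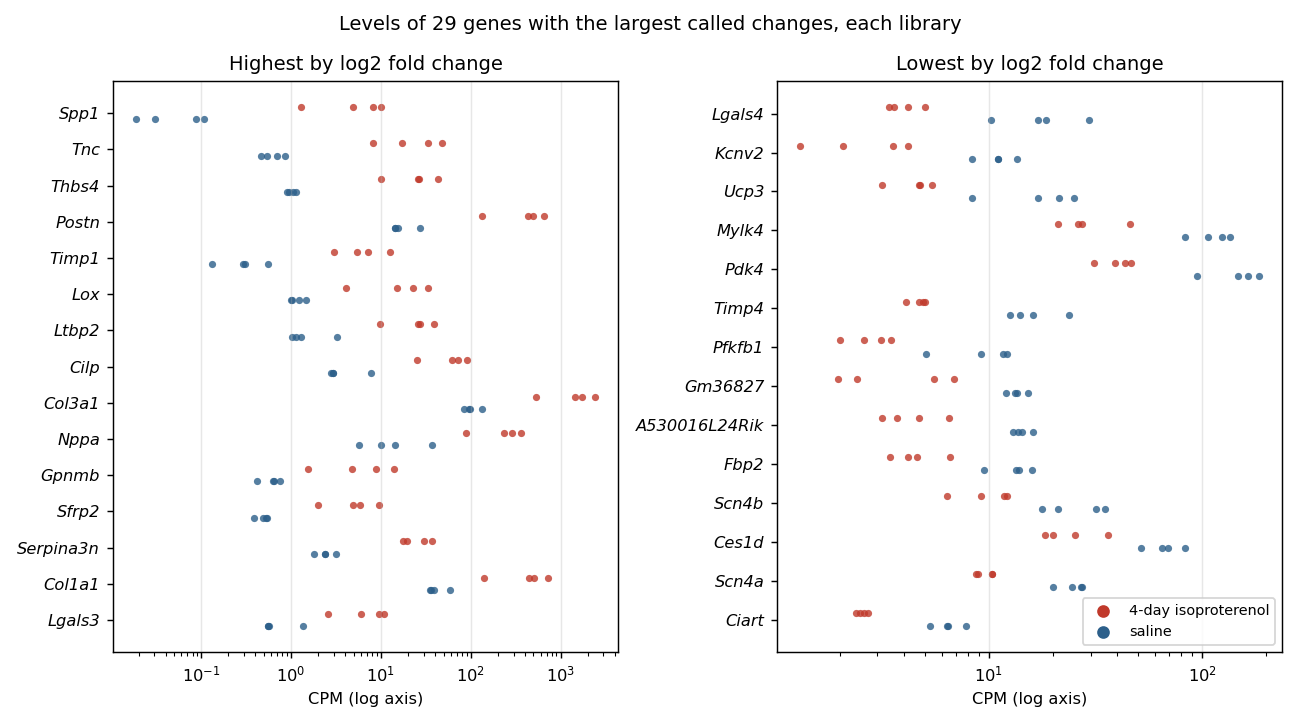
CPM (log axis) of the 15 genes with the highest log2 fold change and 14 of the 15 with the lowest by the rule for named genes, with each point 1 library, 4-day hearts in red above saline hearts in blue. No gene overlaps between groups, the choice having required this, and Postn runs from 134 to 657 CPM in 4-day hearts, against 14.4 to 27.3 CPM in saline hearts.

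The largest called falls by the same rule took in genes of varied function. Lgals4, the gene of galectin-4, a sugar-binding lectin, fell by 2.24, Ucp3, a mitochondrial uncoupling protein of muscle, by 1.98 and Ces1d, a carboxylesterase that acts on lipids, by 1.42. Pdk4, the kinase that shuts off pyruvate dehydrogenase, stood at 43.7, 39, 46.2 and 31.3 CPM in 4-day hearts, against 165, 147, 186 and 95 CPM in saline hearts, and fell by 1.88 (SE 0.18, adjusted p = 0.000111). A sodium channel subunit of skeletal muscle, Scn4a, fell by 1.37 (SE 0.11, adjusted p = 2.75e-05), with 8.71, 10.4, 10.4 and 8.85 CPM in 4-day hearts, against 27.5, 20.1, 27.1 and 24.5 CPM in saline hearts. Scn4b, a β subunit of sodium channels, fell by 1.44. The lncRNA A530016L24Rik fell by 1.68, and Gm36827 stood at -1.69 (adjusted p = 0.00312, 0.058 with robust dispersions).

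**Figure D2:**
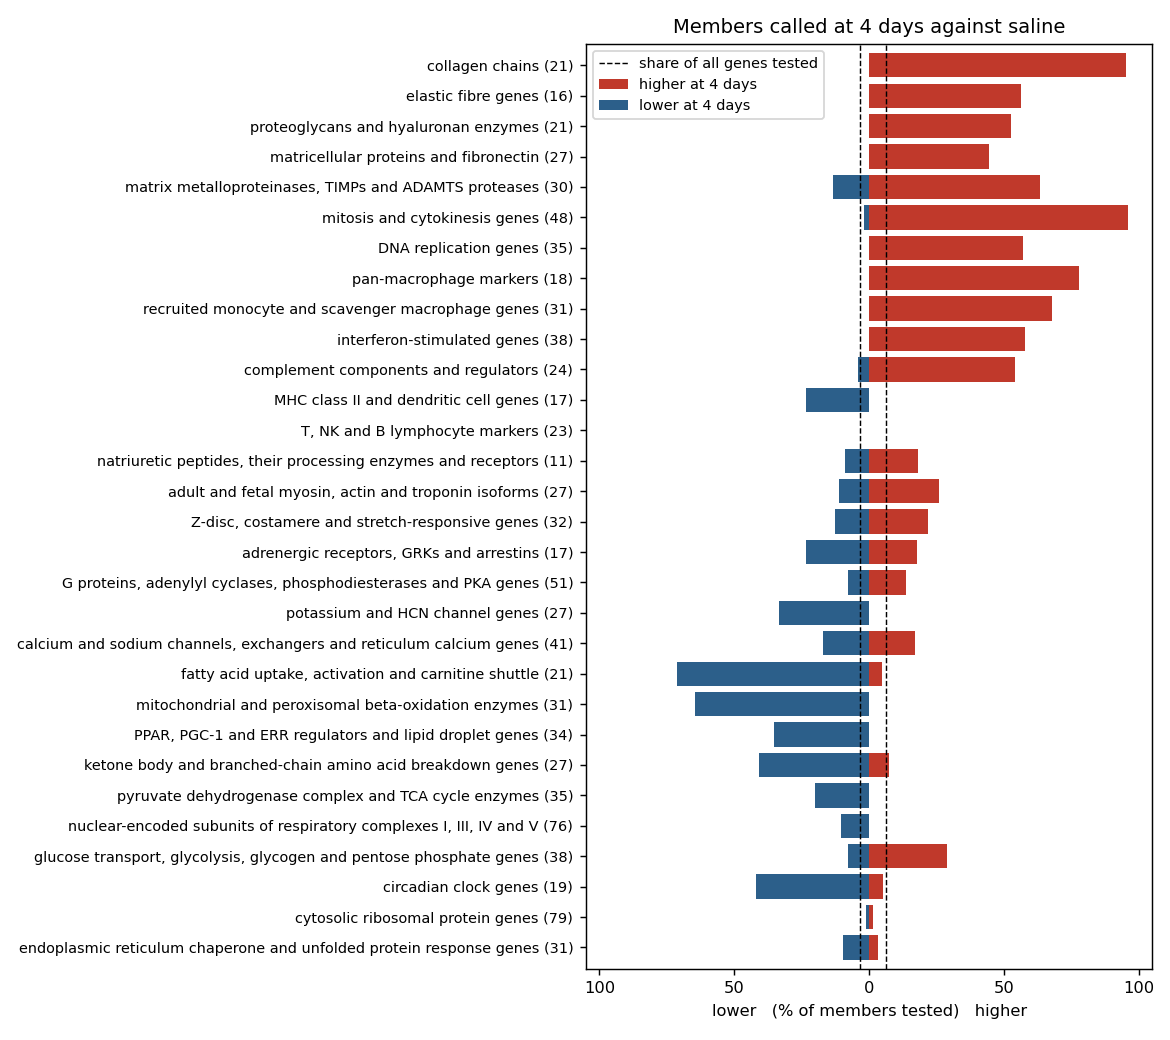
Share of the members tested (%, number of members in brackets) that passed the threshold in 4-day against saline hearts for 30 gene lists, with members higher at 4 days to the right in red and lower to the left in blue, and dashed lines at the share among all genes tested (6.05% higher, 3.4% lower). Collagens (20 of 21) and mitosis genes (46 of 48) reach furthest to the right, and fatty acid uptake (15 of 21) and β-oxidation (20 of 31) furthest to the left.

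Gene lists were drawn up by function with earlier results of these data in view, so their counts are descriptions to be read beside the shares over all genes. Those shares, which apply to every list below, were 6.05% higher and 3.4% lower. Of 21 collagen chains tested, 20 rose, with a median log2 fold change of 1.99, against 0.0061 over all genes. Fibrillar collagens form the tensile fibers of the matrix. Col3a1 stood at 2437, 527, 1757 and 1453 CPM in 4-day hearts, against 97.5, 133, 83.3 and 96.5 CPM in saline hearts (log2 fold change 3.91, SE 0.36, adjusted p = 0.000111). Col1a1 rose by 3.43 and Col1a2 by 2.83, and the minor fibrillar chain Col5a2 by 2.92. Chains that decorate fibrils or form networks rose as well, Col12a1 by 2.86, Col14a1 by 2.55 and Col8a1 by 2.28. The member that did not pass was Col11a1. The count was 20 or 21 with any heart left out. The mean of the members on a log2 scale, relative to the saline mean, was 2.35, 0.95, 2.0 and 1.82 in 4-day hearts, against -0.053, 0.32, -0.075 and -0.19 in saline hearts, so 4-day B held the mildest rise and saline B the highest level in its group.

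Genes that process collagen rose in part, 11 of 27, and 1 fell, with a median of 0.36. That fall was lost with library size alone, with effective-length offsets, or with any single heart but saline B or 4-day B left out. P4ha3, a collagen prolyl hydroxylase, stood at 1, 0.159, 0.586 and 0.683 CPM in 4-day hearts, against 0.0186, 0.0304, 0.0176 and 0 CPM in saline hearts. The crosslinking enzymes Lox (log2 fold change 4.03), Loxl2 (2.2) and Loxl3 (1.36) rose, as did the propeptide-cleaving enzymes Bmp1 (1.07) and Adamts2 (1.89) and the enhancer of that cleavage Pcolce (1.26). Of 27 matricellular and adhesive glycoproteins 12 rose, with a median of 0.89, among them Tnc, the gene of tenascin-C (5.51), and Fn1, the gene of fibronectin (2.61). Of 21 proteoglycans and hyaluronan enzymes 11 rose, including Bgn, biglycan (1.87), Vcan, versican (1.74), Aspn, asporin (2.25), Fmod, fibromodulin (3.12) and Acan, aggrecan, the large proteoglycan of cartilage (4.35). Acan was low in every heart, at 1.33, 0.636, 0.48 and 0.99 CPM in 4-day hearts, against 0.0186, 0, 0.044 and 0.13 CPM in saline hearts. Of 16 elastic fiber genes 9 rose, Fbn1, fibrillin-1, by 2.47 and Mfap5, a microfibril protein, by 2.70 (SE 0.24, adjusted p = 9.65e-05).

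Proteases of the matrix and their inhibitors moved in both directions, with 19 of 30 higher and 4 lower. The gelatinase Mmp2 rose by 1.35, its membrane-bound activator Mmp14 by 1.63 and the metalloproteinase Adamts12 by 2.28. The tissue inhibitors of metalloproteinases (TIMPs) were divided. Timp1 stood at 12.6, 2.99, 5.43 and 7.27 CPM in 4-day hearts, against 0.13, 0.547, 0.29 and 0.304 CPM in saline hearts (log2 fold change 4.58, SE 0.46, adjusted p = 0.000162). Timp4, an inhibitor with high levels in the normal heart, stood at 4.08, 5.04, 4.93 and 4.68 CPM in 4-day hearts, against 12.6, 16.2, 14 and 23.7 CPM in saline hearts (log2 fold change -1.82, SE 0.17, adjusted p = 0.000111). Both genes were separated between groups, in opposite directions. Timp3, which binds to the matrix, fell by 0.46, a call lost with library size alone (adjusted p = 0.174). The 4 falls became 2 under that scaling and with effective-length offsets.

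Among 37 TGF-β and activin pathway genes, whose ligands drive fibroblasts to make matrix, 10 rose and 2 fell, with a median of 0.19. The ligand Tgfb3 rose by 0.93, the receptor Tgfbr2 by 0.46 and the latent binding protein Ltbp3 by 1.02, while the ligand Tgfb2 stood at 0.32 (adjusted p = 0.11). Fstl1, a secreted follistatin-like glycoprotein, stood at 250, 86.9, 183 and 181 CPM in 4-day hearts, against 30, 44.6, 32.3 and 27.6 CPM in saline hearts, a rise of 2.39. The betaglycan gene Tgfbr3 stood at -0.41 (adjusted p = 0.0136, 0.292 with library size alone). The number risen was 17 with both B hearts left out, and the number fallen was 1 with library size alone or without saline A, saline C or 4-day A, C or D, and 4 without saline D. Of 42 growth factor genes 12 rose and 4 fell, and the falls were 2 without saline D or 4-day A and 1 with library size alone. Pdgfra, the PDGF receptor of fibroblasts, rose by 0.68, the growth factor Igf1 by 1.22, its binding protein relative Igfbp7 by 1.08 and Fgf18 by 1.44. Angpt1, the angiopoietin that steadies vessels, fell by 1.09, with 14, 15.8, 10.8 and 14.7 CPM in 4-day hearts, against 29.8, 21.2, 35.1 and 30.9 CPM in saline hearts.

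Adrenergic receptors and the kinases and arrestins that silence them made up a list of 17, of which 3 rose and 4 fell. Adrb1, the β1 receptor through which isoproterenol acts on heart muscle, stood at 4.32, 5.14, 4.61 and 4.44 CPM in 4-day hearts, against 6.32, 6.41, 8.07 and 6.29 CPM in saline hearts. The groups did not overlap (log2 fold change -0.56, SE 0.11, adjusted p = 0.00713, 0.144 with library size alone). The α1 receptor Adra1a, which isoproterenol hardly engages, fell by 0.82 (SE 0.12, adjusted p = 0.000976), with 10.3, 13.7, 12.9 and 12.1 CPM in 4-day hearts, against 18.8, 18.4, 24.3 and 24.7 CPM in saline hearts, and Adra1b stood at -0.69 (adjusted p = 0.0125, 0.0878 with library size alone). Grk5, a kinase that uncouples receptors from their G proteins, rose by 0.49 (SE 0.087, adjusted p = 0.00343), with 28.8, 24.6, 26.7 and 26.1 CPM in 4-day hearts, against 17, 18.8, 21.4 and 18.6 CPM in saline hearts. The list's rises were 1 without saline A or 4-day A, and its falls 2 with library size alone.

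Downstream, 7 of 51 G protein, adenylyl cyclase, phosphodiesterase and protein kinase A genes rose and 4 fell. The phosphodiesterases Pde1a and Pde3b, which break down cyclic nucleotides, rose by 1.0 and 0.79. The rises were 4 without 4-day C, 4-day D or saline A or with effective-length offsets, and 11 with library size alone or with both B hearts left out. The falls were 1 with library size alone and 9 by DESeq2. Of 24 immediate early genes, which respond to stimulation within an hour, edgeR placed 0 above saline (4 at an unadjusted p under 0.05, 1 by DESeq2 and 3 by limma voom). Without saline B 4 were higher, without 4-day B 1, with both B hearts left out 5 and with library size alone 2. Dusp1, a phosphatase that dampens MAP kinases, fell by 0.71, with an adjusted p of 0.0645 with library size alone, and Fos stood at -0.14 (adjusted p = 0.823). Saline B was highest of the saline hearts in the mean of this list, at 0.68, against -0.31 to -0.18 in the others. In the renin-angiotensin and endothelin list 4 of 13 rose and 3 fell. Agt, the gene of angiotensinogen, rose by 1.11, Ace, the angiotensin-converting enzyme, by 0.87, and the receptor Agtr1a stood at -0.60 (adjusted p = 0.0108, 0.0752 with library size alone). The falls were 1 without 4-day A or any saline heart but B, and 0 with library size alone.

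Genes of cell division rose. Dividing cells copy their DNA with replication factors and then separate chromosomes with mitotic kinases, cyclins and kinetochore proteins. Promoters of many mitotic genes are known to be held silent outside the cycle through an element called CHR, and many carry CCAAT boxes bound by NF-Y. The 250 bases before the start of 4 mitosis genes are therefore printed here. They come from RefSeq (GRCm38.p6), 5′ to 3′ along the gene, with CCAAT or its reverse ATTGG and the CHR core TTTGAA or its reverse TTCAAA in capitals. Both strands were searched, and the motifs can share an end base, which happens in none of the printed windows. The windows are chr10:69352913-69353162 for Cdk1, the kinase that starts mitosis, chr11:99024190-99024439 for Top2a, the topoisomerase that untangles chromosomes, chr9:70421555-70421804 for Ccnb2, a mitotic cyclin, and chr1:189688087-189688336 for Cenpf, a kinetochore protein, all on the minus strand.
Cdk1: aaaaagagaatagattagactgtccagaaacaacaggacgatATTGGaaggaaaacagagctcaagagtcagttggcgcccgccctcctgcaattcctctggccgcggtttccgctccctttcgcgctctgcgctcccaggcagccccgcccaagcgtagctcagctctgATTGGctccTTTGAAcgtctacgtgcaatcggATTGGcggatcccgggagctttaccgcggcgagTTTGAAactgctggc
Top2a: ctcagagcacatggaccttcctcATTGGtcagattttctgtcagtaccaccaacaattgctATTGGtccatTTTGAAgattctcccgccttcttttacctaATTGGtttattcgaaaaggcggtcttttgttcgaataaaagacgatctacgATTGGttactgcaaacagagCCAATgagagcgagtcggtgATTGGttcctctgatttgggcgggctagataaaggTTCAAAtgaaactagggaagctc
Ccnb2: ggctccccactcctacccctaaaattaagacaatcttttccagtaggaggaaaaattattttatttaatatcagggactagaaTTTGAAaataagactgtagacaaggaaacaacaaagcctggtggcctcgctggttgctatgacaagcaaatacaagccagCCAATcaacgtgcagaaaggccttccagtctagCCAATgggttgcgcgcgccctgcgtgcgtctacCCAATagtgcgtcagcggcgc
Cenpf: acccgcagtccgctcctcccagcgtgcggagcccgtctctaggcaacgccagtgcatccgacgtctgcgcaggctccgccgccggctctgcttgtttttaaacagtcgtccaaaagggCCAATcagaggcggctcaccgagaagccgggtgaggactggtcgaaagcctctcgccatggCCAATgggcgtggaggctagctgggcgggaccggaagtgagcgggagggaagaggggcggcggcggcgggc
Top2a held 6 CCAAT and 2 TTTGAA matches, Cdk1 3 and 2, Ccnb2 3 and 1, and Cenpf 2 and 0. Of the 48 mitosis genes tested 40 matched the promoter table, and 29 of these (72.5%) held at least 1 CCAAT and 14 (35%) at least 1 TTTGAA, against 37.5% and 18.3% of all 27025 genes in the table. Such matches describe letters, not binding.

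Of the 48 mitosis and cytokinesis genes 46 rose, with a median log2 fold change of 2.18, and the number was 40 to 47 with any heart left out. Mki67, the marker of cycling cells, stood at 48.1, 14.8, 20.3 and 26.6 CPM in 4-day hearts, against 4.68, 9, 5.1 and 4.16 CPM in saline hearts (log2 fold change 2.27, SE 0.32, adjusted p = 0.000886). Top2a stood at 26.2, 8.14, 8.81 and 14.7 CPM in 4-day hearts, against 1.58, 3.89, 2.34 and 1.65 CPM in saline hearts, and Cdk1 at 3.12, 0.928, 1.18 and 1.84 CPM in 4-day hearts, against 0.279, 0.365, 0.29 and 0.173 CPM in saline hearts. The highest level was in 4-day A in all of these. Ccnb2 rose by 2.49, the mitotic cyclin Ccnb1 by 2.99, the checkpoint kinase Bub1 by 3.43, Aurkb, the kinase of the chromosomal passenger complex, by 2.53 and Cdca3, which triggers mitotic entry, by 3.53. Cenpf went the other way. It stood at 24.1, 30, 30.3 and 14.3 CPM in 4-day hearts, against 42.3, 41.9, 56.9 and 95.2 CPM in saline hearts, with no overlap (log2 fold change -1.25, SE 0.26, adjusted p = 0.00867, 0.0998 with robust dispersions). Which cells carried the rise was not measured in this tissue.

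Of 35 DNA replication genes 20 rose, with a median of 0.59, and 12 did so without 4-day A. The helicase loading factor Mcm10 rose by 2.30, the helicase subunit Mcm5 by 1.18, Uhrf1, which carries DNA methylation through replication, by 1.96 and the transcription factor E2f1 by 1.71. Promoters of 29 of the 35 genes matched the table, and 18 of these (62.1%) held CCAAT, against 37.5% of all 27025 genes. TTTGAA was found in 5 of the 29 (17.2%), against 18.3% of all genes. CCAAT was not particular to genes of cell division, being found in 11 of 16 clock gene promoters matched (68.8%). Of 21 cyclin D, CDK and CDK inhibitor genes 3 rose, among them Cdkn1a, the gene of the inhibitor p21 (1.3), which stood at 5.78, 3.98, 5.82 and 4.06 CPM in 4-day hearts, against 1.43, 3.25, 1.74 and 1.78 CPM in saline hearts. The 3 became 5 without 4-day B and 6 with library size alone. The microtubule destabilizer Stmn1 (1.24), common in cycling cells, and the β-tubulin Tubb2b (1.41) rose, whereas the β-tubulin Tubb4b fell by 0.85, and the tubulin list as a whole had 5 of 19 higher and 3 lower. The 5 became 2 without saline C or 4-day A and 3 without saline D or 4-day D.

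Macrophage genes rose. Of 18 genes found in most macrophages 14 rose, with a median of 1.05. Cd68, a lysosomal glycoprotein, stood at 9.84, 3.98, 8.34 and 5.81 CPM in 4-day hearts, against 1.88, 2.37, 1.79 and 2.08 CPM in saline hearts (log2 fold change 1.83, SE 0.24, adjusted p = 0.000589). Adgre1, which encodes F4/80, rose by 1.10, the complement component C1qa by 0.82, the lysozyme Lyz2 by 1.62 and the integrin chain Itgam by 1.39. Of 31 genes of recruited monocytes and scavenging macrophages 21 rose, with a median of 1.14, including Trem2, a lipid-sensing receptor, at 6.09, 2.12, 6.44 and 3.07 CPM in 4-day hearts, against 0.65, 1.12, 0.484 and 0.867 CPM in saline hearts. 4-day A and C were the high hearts in both groups of macrophage genes. Of the 23 lymphocyte genes edgeR called 0 (3 lower at an unadjusted p under 0.05, 0 by DESeq2, 1 lower by limma voom and 2 lower without 4-day C), and the summed level of 8 lymphocyte markers was 0.683 to 1.68 CPM in 4-day hearts, against 1.47 to 1.9 CPM in saline hearts.

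Resident macrophage genes were divided. Of 14, 9 rose and 2 fell. Vsig4, a complement receptor, stood at 2.31, 1.06, 1.69 and 1.26 CPM in 4-day hearts, against 0.223, 0.699, 0.211 and 0.13 CPM in saline hearts, a rise of 2.44, the folate receptor Folr2 rose by 0.82 and the mannose receptor Mrc1 by 0.80. Retnla (on chromosome 16), a secreted product of alternatively activated macrophages, stood at 0.0631, 0.053, 0.0769 and 0 CPM in 4-day hearts, against 1.5, 1.82, 1.08 and 1.6 CPM in saline hearts (log2 fold change -4.60, SE 0.35, adjusted p = 2.75e-05). No 4-day heart reached 0.1 CPM and no saline heart was under 1 CPM. Lyve1, another resident marker, stood at -0.38 (adjusted p = 0.461). Antigen presentation genes of MHC class II fell, 4 of the 17 members of their list, and it was these 4 with every heart left out in turn. Cd74, the invariant chain, stood at 14.9, 10.8, 20.2 and 20.9 CPM in 4-day hearts, against 37.7, 51.6, 35.7 and 38.8 CPM in saline hearts (log2 fold change -1.29, SE 0.18, adjusted p = 0.000785), and H2-Eb1, a β chain, at 4.99, 3.82, 6.36 and 6.97 CPM in 4-day hearts, against 12.4, 18, 12.5 and 12.6 CPM in saline hearts. H2-Aa fell by 1.28 and H2-Ab1 by 1.17. 4-day B was the lowest 4-day heart in these genes, whereas it was the least changed in the matrix and mitosis lists.

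Of 38 interferon-stimulated genes 22 rose, with a median of 0.57. Ifi27l2a stood at 13.1, 6.7, 10 and 8.67 CPM in 4-day hearts, against 2.19, 3.31, 3.03 and 1.56 CPM in saline hearts, a rise of 1.91, the antiviral factor Ifit3 rose by 1.29 and Irf7, a transcription factor of the response, by 1.12. The count was 13 without saline A or C and 11 without 4-day A or C, and 34 with both B hearts left out. Of 24 complement genes 13 rose and 1 fell, the fall being lost with library size alone. Those that rose included the receptor C3ar1 (1.3) and factor B, Cfb (1.54), while the central component C3 stood at 0.17 (adjusted p = 0.722). Chemokines, cytokines and their receptors gave 9 of 49 higher and 3 lower, with 16 higher without saline B and 18 with both B hearts left out. Ccl8, a monocyte attractant, stood at 1.52, 1.09, 0.634 and 0.649 CPM in 4-day hearts, against 0.0743, 0.0608, 0.0616 and 0.173 CPM in saline hearts, a rise of 3.63. The eotaxins Ccl11 and Ccl24, which attract eosinophils, fell by 1.81 and 1.5. Ccl11 stood at 0.388, 0.451, 0.423 and 0.342 CPM in 4-day hearts, against 1.62, 1.19, 0.959 and 2.08 CPM in saline hearts. Il1rn, which blocks the interleukin-1 receptor, had 97 counts over the 4-day hearts, against 3 over the saline hearts, a ratio of 25.6 per unit depth (95% exact counting interval 8.49 to 126). That interval pools the hearts of each group and leaves out the spread between hearts. Ackr4, a scavenger receptor of chemokines, rose by 0.85 and Il13ra1 by 0.45.

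**Figure D3:**
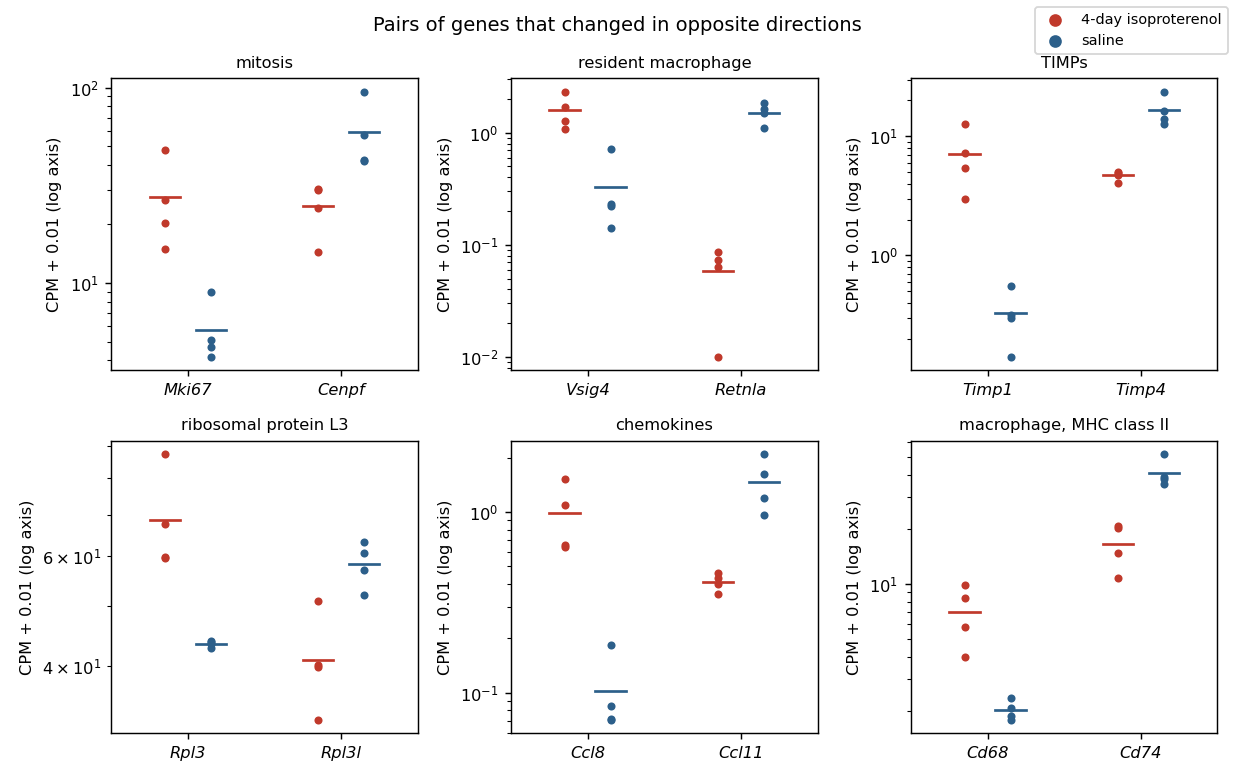
CPM plus 0.01 (log axis) for 6 pairs of genes of related function, with each point 1 library, the line the mean of 4, and 4-day hearts in red left of saline hearts in blue. The gene on the left of each pair was higher in all 4-day hearts and that on the right lower in all 4-day hearts, as for Timp1 (2.99 to 12.6 against 0.13 to 0.547 CPM) and Timp4 (4.08 to 5.04 against 12.6 to 23.7 CPM). The pairs were picked with these directions known.

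The natriuretic peptides are hormones that heart muscle releases under load, cut by proteases from longer precursors. Nppa, which encodes the atrial peptide, stood at 362, 88.8, 286 and 234 CPM in 4-day hearts, against 14.3, 37.3, 10.1 and 5.72 CPM in saline hearts (log2 fold change 3.85, SE 0.52, adjusted p = 0.000698). Nppb stood at 0.63 (SE 0.47, adjusted p = 0.499), with saline B at 36.6 CPM above all 4-day hearts. Pam, which amidates other peptides and lies in the membrane of atrial granules, stood at 659, 590, 639 and 698 CPM in 4-day hearts, against 279, 288, 247 and 253 CPM in saline hearts, a narrow spread in both groups (log2 fold change 1.28, SE 0.091, adjusted p = 2.09e-05). Corin, the protease that activates the atrial peptide, fell by 0.61. Of 8 atrial markers 2 rose, Nppa and Dkk3 (2.34), and 1 fell, with a median of 0.0024. The fall was lost with library size alone or without saline C, saline D, 4-day A or 4-day D. Myl7 and Sln, of the same list, were near 0 in all 8 hearts, at up to 0.13 and 0.0361 CPM. The part of atrial tissue in these values was not tested.

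Among 27 myosin, actin and troponin isoforms 7 rose and 3 fell. Acta1, the skeletal α-actin that the fetal heart expresses, stood at 179, 173, 133 and 163 CPM in 4-day hearts, against 32.6, 54.1, 9.41 and 7.85 CPM in saline hearts (log2 fold change 2.64, SE 0.47, adjusted p = 0.00312, 0.068 with robust dispersions). Myl1, a skeletal and fetal light chain, rose by 0.93, and the ventricular light chain Myl2 fell by 0.73, with 1531, 1888, 1489 and 1655 CPM in 4-day hearts, against 3049, 2374, 2453 and 3007 CPM in saline hearts. The β-myosin heavy chain Myh7 stood at 0.51 (SE 0.38, adjusted p = 0.496) and the α chain Myh6 at -0.14 (SE 0.11, adjusted p = 0.519). The rises were 2 without saline A or 4-day A, 3 without saline C, 4 without 4-day C or D or with effective-length offsets, and 11 with library size alone or both B hearts left out, and the falls were 1 with library size alone. Of 32 Z-disc and stretch genes 7 rose and 4 fell, and the rises were 3 without saline C, saline D or 4-day A and 4 without 4-day C or D, with 2 falls with library size alone. Ankrd1, a stretch-responsive protein of the sarcomere, stood at 1761, 984, 1224 and 1303 CPM in 4-day hearts, against 327, 467, 165 and 159 CPM in saline hearts (log2 fold change 2.24), Fhl1, a LIM protein that senses strain, rose by 2.12 and the intermediate filament gene Des by 0.54. The Z-disc proteins Tcap and Myoz2 fell by 0.74 and 0.64, and Mylk4, a myosin light chain kinase, by 1.90, with no overlap between the groups.

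Of 27 potassium and HCN channel genes edgeR placed 9 below saline and 0 above (2 above at an unadjusted p under 0.05, 1 by DESeq2 and 2 by limma voom). Kcnv2, which modifies voltage-gated channels, stood at 1.3, 4.16, 3.54 and 2.08 CPM in 4-day hearts, against 11.1, 8.3, 11.1 and 13.5 CPM in saline hearts (log2 fold change -2.0). Kcnd3, a subunit of the transient outward current, stood at -0.45, Kcnj12, an inward rectifier, at -0.49 and Kcna5 at -0.88. With library size alone Kcnd3, Kcnj12 and Kcna5 had adjusted p of 0.206, 0.132 and 0.0505, and 1 of the 27 was called lower and 2 higher. Without saline C or 4-day B 1 was higher, and 2 with both B hearts left out. The falls were 5 without 4-day A, saline A or saline C, and 14 with both B hearts left out. Of 41 calcium and sodium handling genes 7 rose and 7 fell, with 4 rises without saline D, 4-day A or 4-day C and 3 with effective-length offsets. With library size alone 11 were higher and 2 lower. Atp2a2, the SERCA pump that refills the reticulum, stood at 3603, 4999, 4281 and 3918 CPM in 4-day hearts, against 6458, 6105, 6575 and 6886 CPM in saline hearts (log2 fold change -0.63, SE 0.11, adjusted p = 0.00343). In the sodium pump the β1 subunit Atp1b1 rose by 0.60 and the regulator Fxyd5 by 0.93.

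Genes that bring fatty acids into the cell and its mitochondria fell, 15 of 21, with a median of -0.59, and 1 rose. That rise was lost with effective-length offsets or without 4-day A, C or D or saline A or C. Fabp3, which carries fatty acids within heart muscle cells, stood at 445, 597, 395 and 455 CPM in 4-day hearts, against 1004, 796, 759 and 935 CPM in saline hearts (log2 fold change -0.89, SE 0.13, adjusted p = 0.00119). The transporter Cd36 fell by 0.56, the carnitine acyltransferases Cpt1b and Cpt2 by 0.63 and 0.81, Mlycd, which removes the brake malonyl-CoA, by 0.93 and the lipoprotein receptor Vldlr by 0.86. Of 31 β-oxidation enzymes 20 fell, with a median of -0.51, and 12 with library size alone. Hadhb, a subunit of the trifunctional protein, stood at 284, 401, 303 and 352 CPM in 4-day hearts, against 704, 535, 648 and 695 CPM in saline hearts (log2 fold change -0.95, SE 0.12, adjusted p = 0.00063). Ech1, an isomerase for unsaturated fatty acids, fell by 1.24 and the thiolase Acaa2 by 0.97. Acot1, a thioesterase that PPARα induces, stood at 0.721, 0.822, 0.692 and 0.786 CPM in 4-day hearts, against 5.76, 3.07, 6.11 and 4.86 CPM in saline hearts (log2 fold change -2.75, SE 0.21, adjusted p = 2.75e-05). The spread among 4-day hearts was small in this gene. Of 34 PPAR, PGC-1 and lipid droplet genes 12 fell, with Plin5, which coats lipid droplets near mitochondria, at -0.97, whereas Ppara itself stood at -0.28 (adjusted p = 0.0948) and Ppargc1a at -0.16 (adjusted p = 0.486).

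Ketone body and branched-chain amino acid genes gave 2 of 27 higher and 11 lower. Bdh1, which oxidizes the ketone body β-hydroxybutyrate, stood at 45.7, 56.3, 44.2 and 55.1 CPM in 4-day hearts, against 17.1, 25.4, 9.79 and 14.3 CPM in saline hearts (log2 fold change 1.60, SE 0.22, adjusted p = 0.000678). Bckdha and Ivd, of branched-chain amino acid breakdown, fell by 0.61 and 0.67. The 2 rises were 1 without 4-day A, C or D, without saline A or C or with effective-length offsets. The 11 falls were 6 without 4-day A, 4-day C or saline A, 7 without saline D, 4 with library size alone and 17 with both B hearts left out. In glucose metabolism 11 of 38 rose and 3 fell, with a median of 0.24. Pfkp, a phosphofructokinase, rose by 0.70, its activator enzyme Pfkfb2 by 0.83 and the muscle enolase Eno3 by 0.45. Pfkfb1 fell by 1.81 and Fbp2, which runs the phosphofructokinase step backwards, by 1.52. The glucose transporters Slc2a1 and Slc2a4 stood at 0.29 (adjusted p = 0.112) and 0.021 (adjusted p = 0.946). The 11 rises were 6 without saline A or C, 3 without 4-day A and 5 without 4-day D, and 20 with library size alone.

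Of 35 pyruvate dehydrogenase and TCA cycle genes 7 fell (14 without saline B, 17 with both B hearts left out, 12 by DESeq2, 4 with library size alone or effective-length offsets), Idh2, the mitochondrial isocitrate dehydrogenase, by 0.67. Of 76 nuclear-encoded subunits of respiratory complexes 8 fell, with a median of -0.23. Cox6a2, the heart and muscle form of a cytochrome oxidase subunit, stood at 211, 252, 200 and 215 CPM in 4-day hearts, against 412, 281, 287 and 432 CPM in saline hearts (log2 fold change -0.69, SE 0.14, adjusted p = 0.00784). That count moved widely, with 3 falls without saline A or D, 22 without saline B, 2 without 4-day A or C, 17 without 4-day B, 4 without 4-day D, 1 with library size alone, 21 by DESeq2 and 36 with both B hearts left out. The brain-type creatine kinase Ckb rose by 0.43 and Gamt, which completes creatine synthesis, by 1.03, while the muscle form Ckm stood at -0.25 (adjusted p = 0.169).

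**Figure D4:**
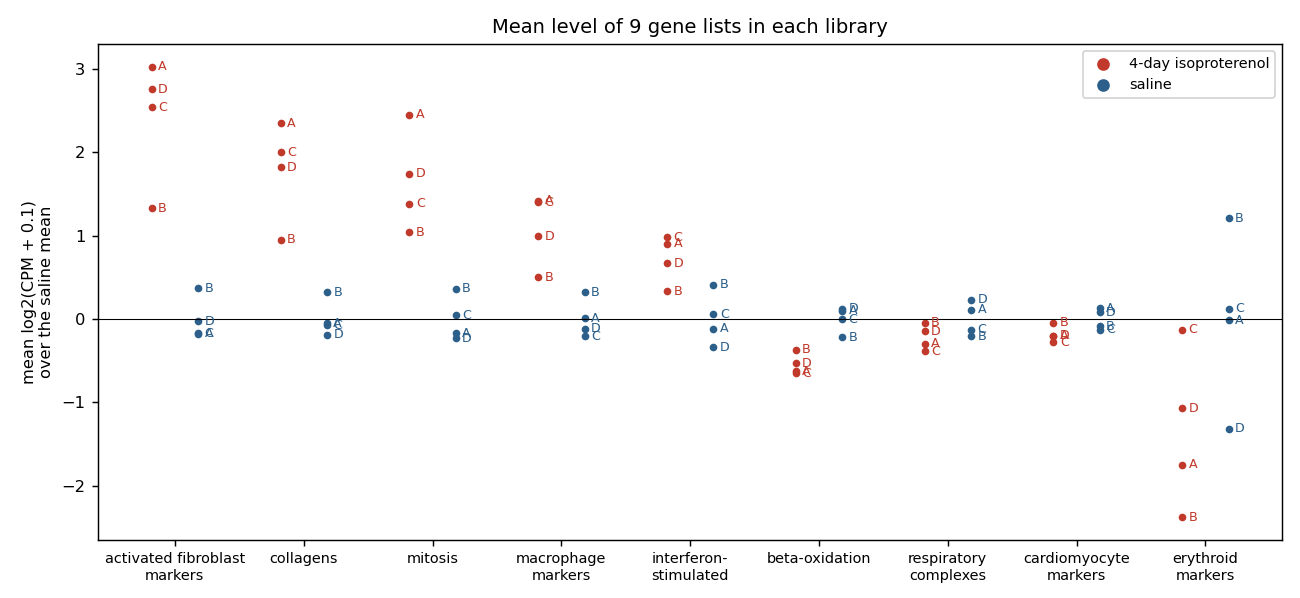
Mean over the members of 9 gene lists of log2(CPM + 0.1), relative to the saline mean, in each library (letters give the replicate), with 4-day hearts in red left of saline hearts in blue. 4-day B is the lowest 4-day heart for collagens (0.95, against 1.82 to 2.35) and mitosis (1.04, against 1.38 to 2.45), and erythroid markers run from -2.38 to 1.21, lower on average in 4-day hearts but with the groups overlapping.

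Of 79 cytosolic ribosomal protein genes 1 rose and 1 fell, and these encode forms of the same protein. Rpl3 stood at 87.4, 59.5, 59.8 and 67.5 CPM in 4-day hearts, against 42.7, 43.8, 43.7 and 43.3 CPM in saline hearts (log2 fold change 0.66, SE 0.11, adjusted p = 0.00262). Rpl3l, the form of heart and skeletal muscle, stood at 32.8, 50.9, 39.9 and 40.2 CPM in 4-day hearts, against 57.1, 52, 60.7 and 63.2 CPM in saline hearts (log2 fold change -0.51, SE 0.12, adjusted p = 0.0154, 0.103 with library size alone). The falls numbered 10 without saline B, 3 without 4-day B, 9 with both B hearts left out, 4 by DESeq2, 2 with robust dispersions and 0 with library size alone, which placed 3 higher. The elongation factor Eef1a1 rose by 0.74, and its muscle form Eef1a2 stood at 0.026 (adjusted p = 0.906). The reticulum chaperone Hspa5 fell by 0.72, with 141, 160, 108 and 136 CPM in 4-day hearts, against 264, 263, 169 and 203 CPM in saline hearts. Its list had 1 of 31 higher and 3 lower, against 6.05% and 3.4% of all genes. It had 8 lower without saline C, 6 by DESeq2 and 1 with library size alone. The small heat shock proteins of muscle Hspb6 and Hspb7 rose by 0.55 and 0.58. Hspa1a, the inducible heat shock protein, stood at 1.47, 1.27, 1.71 and 1.23 CPM in 4-day hearts, against 1.24, 42.9, 0.774 and 1.56 CPM in saline hearts, so saline B alone was high.

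Of 16 metallothionein and zinc transporter genes 4 rose. Mt2 stood at 12.7, 12.6, 9.12 and 9.94 CPM in 4-day hearts, against 1.58, 3.5, 1.1 and 1.6 CPM in saline hearts (log2 fold change 2.59, SE 0.27, adjusted p = 0.000184), and Mt1 rose by 0.97. Serpina3n, a secreted protease inhibitor of the acute phase, stood at 36.9, 19.3, 17.8 and 30.5 CPM in 4-day hearts, against 2.36, 2.4, 1.78 and 3.17 CPM in saline hearts (log2 fold change 3.49, SE 0.24, adjusted p = 2.09e-05). Lcn2, an iron-carrier binding protein, rose by 2.19, and the extracellular antioxidant enzymes Sod3 and Gpx3 by 0.76 and 0.87. Acute-phase and glucocorticoid-responsive genes gave 4 of 20 higher and 4 lower, with a median of -0.21. Antioxidant and NRF2 target genes gave 4 of 25 higher and 4 lower, with a median of -0.16. Falls in these 2 lists were 6 and 7 by DESeq2, and 3 and 1 with library size alone. Among 25 cardiac transcription factors 6 rose and 1 fell, against 6.05% and 3.4% of all genes, with a median of 0.015. The rises were 4 without 4-day C and 8 without 4-day B or with library size alone, which called 0 lower. Sox9, a driver of cartilage and matrix genes, rose by 1.28, and the fibroblast factors Meox1 and Tcf21 by 1.21 and 0.85. Of 33 named lncRNAs 5 rose and 2 fell, against 6.05% and 3.4% of all genes. The rises were 3 without 4-day A, 2 with robust dispersions and 8 with library size alone. The falls were 1 with library size alone, with effective-length offsets or with saline C, saline D, 4-day A, 4-day C or 4-day D left out, and 4 by DESeq2 or with both B hearts left out. Dnm3os, which hosts miRNAs and lies antisense to Dnm3, rose by 1.05, and Mhrt, an antisense transcript of the myosin heavy chain locus, fell by 0.58. The strand setting of the counting is not given in the sources used here, so reads of an antisense transcript and its partner may not be told apart.

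Clock genes keep daily rhythms through the activator BMAL1, the protein of Arntl, which binds E-boxes of the sequence CACGTG, and through repressors that it switches on. Of 19 clock genes 1 rose and 8 fell. Ciart, a repressor of this system, has 3 CACGTG matches (capitals) in the 250 bases before its RefSeq start (chr3:95882229-95882478 of GRCm38.p6, minus strand), which are shown because it had the lowest log2 fold change of the list.
Ciart: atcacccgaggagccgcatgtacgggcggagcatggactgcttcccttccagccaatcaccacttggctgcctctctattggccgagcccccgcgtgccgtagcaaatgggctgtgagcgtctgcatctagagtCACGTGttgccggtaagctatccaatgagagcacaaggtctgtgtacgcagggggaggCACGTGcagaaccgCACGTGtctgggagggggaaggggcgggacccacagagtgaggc
CACGTG, which reads the same on both strands, was found in 5 of 16 clock gene promoters matched (31.2%), against 6.86% of all 27025 genes. Ciart stood at 2.38, 2.7, 2.59 and 2.49 CPM in 4-day hearts, against 6.41, 6.35, 7.82 and 5.29 CPM in saline hearts (log2 fold change -1.36, SE 0.13, adjusted p = 0.000111). Arntl stood at 1.54, 1.46, 1.3 and 1.33 CPM in 4-day hearts, against 0.873, 0.699, 0.572 and 0.52 CPM in saline hearts, a rise of 1.07 (SE 0.20, adjusted p = 0.00424). Per2, Nr1d1 and Dbp stood at -0.60, -0.73 and -0.48 (adjusted p = 0.143, 0.0779 and 0.227 with library size alone), and the falls were 5 without saline C or 4-day D and 2 with library size alone, which placed 3 higher. The time of day of collection is not given in the sources used here, and its part in these values was not tested.

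Cell type markers were read as RNA levels, not as numbers of cells. Cardiomyocyte markers summed to 79051, 85210, 75386 and 78438 CPM in 4-day hearts, against 87779, 78493, 79351 and 84908 CPM in saline hearts, an overlap of the groups, with 2 of 16 higher and 6 lower (3 lower with library size alone, 1 higher without 4-day A, 4-day D, saline B, C or D or both B hearts). Of 14 fibroblast markers 11 rose and 1 fell, with a median of 0.95. The fall was lost with library size alone or without saline A, saline D, 4-day A or 4-day D. Among 10 activated fibroblast markers 8 rose, with a median of 2.59. Cthrc1, a collagen triple helix protein of activated fibroblasts, stood at 6.27, 0.239, 3.6 and 4.92 CPM in 4-day hearts, against 0, 0.0912, 0.0176 and 0.0867 CPM in saline hearts, a call lost with limma voom. The smooth muscle actin Acta2 stood at 0.57 (adjusted p = 0.0627). All 8 macrophage markers rose, with a median of 1.02, Csf1r among them, which passed in 3 of the 8 fits with a heart left out (adjusted p up to 0.0914). Of 18 endothelial markers 2 fell, Cd36 and the water channel Aqp1 (-1.10), which stood at 39.3, 62.5, 47.9 and 51.3 CPM in 4-day hearts, against 106, 118, 119 and 85.6 CPM in saline hearts, and 4 fell without saline D. Erythroid markers summed to 58.3, 39.9, 215 and 101 CPM in 4-day hearts, against 304, 595, 286 and 109 CPM in saline hearts. Of these 6 markers 2 were called lower, with a median of -1.48 and 6 of 6 below 0, and the falls were 5 without 4-day C, 4 without saline D and 0 without any other heart, with library size alone, with robust dispersions or by DESeq2. The summed level was lower on average in 4-day hearts and highest in saline B, and the part of these markers in the results was not tested.

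Hearts after 4 days were compared directly with those after 8 and 11 days, using the same test and no saline heart. The genes read here were those named in the 4-day against saline comparison, which used the same 4-day hearts. Their differences between times are therefore not independent of that choice. In the 4-day hearts 51 genes were higher than at 8 days (0.19%) and 16 lower (0.0596%), and this depended on single hearts. Without 4-day D edgeR called 0 higher and 0 lower (1796 and 799 at an unadjusted p under 0.05), without 8-day B 0 and 1, and without 4-day B 595 and 124. Against 11 days, 1760 genes were higher in 4-day hearts (6.55%) and 1006 lower (3.75%), with 993 and 444 without 4-day A. The levels that follow are CPM scaled over all 15 libraries. Postn stood at 15.1, 26.4, 13.9 and 14.1 CPM in saline hearts, at 634, 130, 420 and 476 CPM at 4 days, at 48, 30.2 and 109 CPM at 8 days and at 21.7, 16.7, 123 and 26.4 CPM at 11 days. The 4-day over 11-day log2 fold change was 3.15 (SE 0.60, adjusted p = 0.00473), and that over 8 days was 2.74 (adjusted p = 0.042, up to 0.2 with a heart left out). Mki67 stood at 3.95 over 11 days (SE 0.35, adjusted p = 0.000137), and at 1.67 over 8 days (adjusted p = 0.063).

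The other genes compared between times varied in size and direction. Mt2 stood at -0.35 over 8 days (adjusted p = 0.395) and 0.061 over 11 days (adjusted p = 0.888), Pam at 0.023 (adjusted p = 0.966) and 0.25 (adjusted p = 0.182), and Mylk4 at -0.10 (adjusted p = 0.925) and -0.08 (adjusted p = 0.866), with standard errors of 0.098 to 0.24. Serpina3n was higher at 4 days than at 11 days by 1.23 (SE 0.20, adjusted p = 0.00199). Of the clock genes, Arntl had a 4-day over 11-day log2 fold change of -1.11 (SE 0.13, adjusted p = 0.000301) and Ciart one of 0.75 (SE 0.13, adjusted p = 0.00326). In the MHC class II genes H2-Eb1 stood at 0.94 over 11 days (adjusted p = 0.0169, 0.0515 without 4-day C) and Cd74 at 0.69 (adjusted p = 0.0916). Acot1 stood at -1.03 over 11 days (SE 0.21, adjusted p = 0.00701) and Timp4 at -0.72 (adjusted p = 0.03, 0.0969 without 4-day A). A p that missed the threshold does not show that levels were alike.

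**Figure D5:**
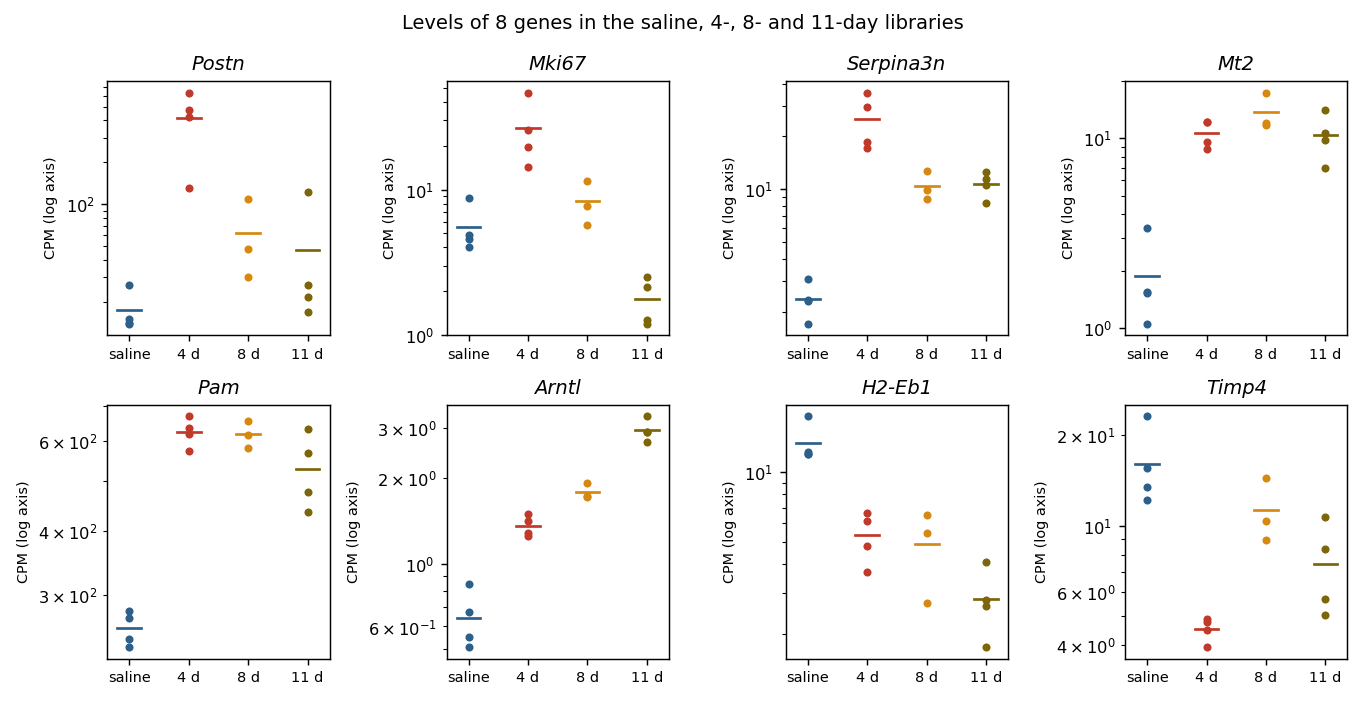
CPM (log axis, scaled over 15 libraries) of 8 genes in saline, 4-day, 8-day and 11-day hearts, with each point 1 library and the line the group mean. The 4-day hearts hold the highest levels of Postn (130 to 634 CPM) and Mki67 (14.4 to 46.4 CPM), and Arntl is highest at 11 days (2.67 to 3.3 CPM, against 1.25 to 1.49 CPM at 4 days and 0.507 to 0.846 CPM in saline hearts).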

How the data were processed

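Per the file headers, the authors deposited 1 RSEM table per heart with expected counts, TPM and effective lengths for 55401 genes. RNA was extracted from pieces of perfused heart and made into total RNA libraries. According to the study's methods and the submitters' processing notes, reads were trimmed with cutadapt 4.1, aligned to GRCm38.p6 with HISAT2 2.2.1 and quantified with RSEM 1.3.3, and a replicate of the 8-day group was removed for its quality. The deposited TPM was not used for tests, and FPKM was not used here. The strand setting is not given in the sources used here.

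After rounding the expected counts, genes whose counts over 15 libraries reached 10 were kept, and 4-day and saline libraries were fitted in edgeR 4.0.16 under R 4.3.3 (quasi-likelihood test, TMM scaling, two-sided, Benjamini-Hochberg adjustment, threshold 0.05). The standard error is the log2 fold change divided by the square root of F. The fit was tested on simulated data. Means over a list used log2(CPM + 0.1). Gene types and positions came from GENCODE M21 (55141 genes matched) and promoters from RefSeq. Total counts set the precision of each level (depths are in the text), and counting intervals, exact at 95%, cover counting error only. The labels name separate samples per group and do not say that each is a separate animal, so p-values measure the spread between these samples.

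Members and lists were chosen with earlier results of these data known. Named genes were the 15 with the largest rise and the 15 with the largest fall among called genes that averaged 5 CPM or more in either group without overlap, up to 6 members per list with the smallest p and fixed anchor genes, called members that went against most of their list, and genes whose sequence is printed. Col11a1 was named after its values were seen, and some genes that the rule takes were left out of the text. Alternatives comprised other scalings, filters, thresholds and dispersions, effective-length offsets, DESeq2 1.42.0, voom of limma 3.58.1, all groups in 1 fit, the replicate block and each library left out, and, chosen after seeing the data, both B hearts left out together.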

Additional observations from a re-analysis of the deposited data

Results flagged for a closer look

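Among the 4 hearts of a group, 1 value lay far from the other 3 in 29 of the 386 sets of 4 examined for the genes of the text. Far means a gap to the nearest of them beyond Dixon's 95% limit for 4 values. About 1 in 20 sets would pass by chance if the values were normal and the sets independent. CPM were used without a log, and the genes share the same hearts, so the 29 cannot be set against that rate. Among 4-day hearts, A stood high for Ccnb2 (1.56 CPM), Cdca3 (2.41 CPM), Mcm10 (1.57 CPM) and Sln (0.0361 CPM), B stood high for Lyve1 (10.9 CPM) and low for Pde3b (3.6 CPM), Per2 (14.2 CPM) and Tgfb3 (5.91 CPM), and C stood low for Ackr4 (4.84 CPM). Of the 20 such values among saline hearts, saline B held 12 high ones. These were Cilp (7.72 CPM), Col1a1 (58.8 CPM), Postn (27.3 CPM), Vcan (18.7 CPM) and Ltbp2 (3.25 CPM) of the matrix, Lgals3 (1.34 CPM), Vsig4 (0.699 CPM), Lyve1 (13 CPM) and H2-Eb1 (18 CPM) of immune cells, and Hspa1a (42.9 CPM), Per2 (32.1 CPM) and Sln (0.0304 CPM). Sln held only 4 counts over the 4-day hearts and 1 over the saline hearts, so its values for 4-day A and saline B rest on those few reads. Saline B was low for Agtr1a (9.79 CPM). Saline A was high for Hspb6 (203 CPM), saline C was high for Adrb1 (8.07 CPM) and low for Cfb (0.431 CPM) and Ckb (9.24 CPM), and saline D was high for Ccl8 (0.173 CPM), Myl7 (0.13 CPM) and Pde1a (4.55 CPM).

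Some genes of the text differed between 4 and 8 days in the direct edgeR test, all of them calls that were lost without 4-day D. Given as log2 of 4-day over 8-day hearts, the matrix genes were Tnc (4.59), Lox (3.01), Postn (2.74), Timp1 (2.70), Col12a1 (2.52), Fbn1 (1.98), Fn1 (1.94), Mfap5 (1.84), Loxl2 (1.66), Vcan (1.62) and Timp4 (-1.31). The others were Spp1 (5.14), Ccl8 (3.21), Fstl1 (1.79), Uhrf1 (1.53), Serpina3n (1.27), Mrc1 (0.63) and Bckdha (-0.55). Of the 20 genes for which the 11-day comparison was also read, 13 differed, given as log2 of 4-day over 11-day hearts. All 20 were picked with their 4-day against saline values known, from the same 4-day hearts. Spp1 stood at 5.44, Top2a at 4.04, Mki67 at 3.95, Col3a1 at 3.16, Postn at 3.15, Lgals3 at 2.66, Ccl8 at 2.29, Serpina3n at 1.23, H2-Eb1 at 0.94, Ciart at 0.75, Timp4 at -0.72, Acot1 at -1.03 and Arntl at -1.11.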

How the results depend on the processing

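Of 4-day against saline hearts, 1159 genes (791 higher, 368 lower) passed at an adjusted p under 0.01 and 938 (762 and 176) with at least a 2-fold change added. Library size alone gave 2533 higher and 293 lower, so that 89.6% of the calls were higher, against 64% with TMM. The other scalings, filters, tools and fits gave 1236 to 1967 higher and 668 to 1278 lower, the lowest with effective-length offsets (1904 in all), and leaving out both B hearts, chosen after seeing the data, gave 2146 and 1356. With 1 heart left out the total was 1387 to 2973, with 891 to 1924 higher and 496 to 1206 lower. The labels do not say that replicate letters pair the hearts. Deviations from group means had same-letter correlations of -0.281, -0.367, 0.188 and -0.006, and different-letter ones of -0.328 to 0.377. With so few hearts these cannot decide whether letters pair them. A replicate block gave 1352 higher and 728 lower. For 4-day against 8-day hearts, library size alone gave 535 genes (513 higher, 95.9%, against 76.1%), the replicate block 423 (350 higher, 73 lower), and leaving out 1 heart 0 to 719 (0 to 595 higher, 0 to 124 lower). For 4-day against 11-day hearts, library size alone gave 2400 higher and 317 lower (88.3% higher, against 63.6%), the replicate block 1697 and 923, and leaving out 1 heart 1437 to 3913 (993 to 2252 higher, 444 to 1661 lower). The cause of these shifts was not tested. Of the 193 genes of the text, 0 changed sign where either fit called the gene, under the alternatives that gave them a value. Genes called in neither fit changed sign 3 times each with library size alone and without saline B. Such changes numbered 2 without 4-day A and 1 each without saline C and without 4-day B. The calls lost numbered 13 with library size alone, 3 with robust dispersions and 1 each with the replicate block and limma voom. The fits of DESeq2 gave no adjusted p or were without 4 of the 193 genes, and filterByExpr left out 5. Depth limits low genes most: 1 count was worth 0.00899 to 0.0342 CPM in 4-day libraries and 0.00879 to 0.0434 CPM in saline libraries.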
